A study of Mus with 18 samples.

Results

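NF-κB is a family of transcription factors held in the cytoplasm by the IκB inhibitors. The transcripts of 10 genes of this system were followed in RNA-seq libraries labelled C2C12 and in those of mouse gastrocnemius muscle. Marker genes went against the C2C12 label in its control and LPS groups, as given below. The genes were chosen by symbol, with earlier results of these data known. They comprise the 5 NF-κB subunit genes (Nfkb1, Nfkb2, Rel, Rela and Relb), the 3 classical IκB genes (Nfkbia, Nfkbib and Nfkbie) and 2 atypical IκB genes (Nfkbiz and Bcl3). All 10 symbols were found among the 21401 gene symbols of each experiment.

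Each experiment had 3 groups of 3 libraries, 18 libraries in all. The C2C12 line consists of mouse myoblasts, which fuse into muscle fibres, and is labelled wild type. Its groups were a vehicle control (saline by the labels, ethanol by the study's text), LPS (1 μg/mL), and LPS (1 μg/mL) together with MIC-1 (10 μM) for 24 h by the labels. The study's text gives 24 h for treatment of the cells, with or without LPS, and a lower MIC-1 concentration for those sequenced. LPS is a cell wall component of Gram-negative bacteria that is sensed through Toll-like receptor 4, and MIC-1 is moringa isothiocyanate-1 from Moringa oleifera seeds. The muscle came from wild type C57BL/6 male mice whose age is not given. The groups were a vehicle control (saline by the labels, oral DMSO by the study's text), LPS (10 mg/kg, injected intraperitoneally), and MIC-1 (80 mg/kg daily by gavage, in 10% DMSO) for 3 days before the same LPS injection. Gastrocnemius was taken 16 h after LPS. The labels give no group that received MIC-1 without LPS. Nothing states that replicates of the cells were separate cultures, and the study's text does not state that each muscle library came from a single mouse. The p-values are therefore taken to measure only the spread between libraries.

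In resting cells, IκB proteins mask the nuclear localisation signal of NF-κB dimers. Signals such as LPS activate the IκB kinase complex, IκB is phosphorylated and degraded, and the dimers enter the nucleus. Several genes of the system are themselves transcribed by NF-κB, and the resynthesis of IκBα from Nfkbia is the best known negative feedback of the pathway. RNA-seq measures the transcripts and not the degradation of IκB or the location of the dimers.

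Levels were given as FPKM (fragments scaled by transcript length and by the mapped total of the library), which is a scale per length, so that genes could be compared within a library. A gene was called changed when the limma test on log2(FPKM + 0.1) gave a Benjamini-Hochberg adjusted p below a limit (0.001 in C2C12, 0.05 in muscle) together with an absolute log2 fold change over 1. The numbers in these limits are those of the study, which used another test. For its muscle counts the study names P under 0.05 with this fold change. It names an adjusted p in muscle only for its clustered genes. Genes needed a mean FPKM over 1 over the 9 libraries to be tested. Of the 10 genes, 9 passed this filter in C2C12 (all but Nfkbib) and 7 in muscle (all but Rel, Nfkbib and Nfkbie). In muscle, Nfkbiz passed through the LPS-MIC-1 libraries, as its mean was under 1 FPKM in the other groups. Within an experiment the 3 comparisons share libraries. Summed FPKM per library was between 547475 and 797734 in C2C12 and between 634197 and 740810 in muscle, and the number of reads per library is not stated.

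The libraries labelled C2C12 were checked against marker genes. The summed FPKM of 13 macrophage genes was between 10700 and 10800 in control, between 7740 and 7960 in LPS, and 289, 80.5 and 90.7 in LPS-MIC-1 replicates 1, 2 and 3. The sum of 12 myoblast genes was at most 0.508 in control and 2.33 in LPS, with 6 and 5 of them (Myf5, Myf6 and Pax7 in both) listed at 0 in all 3 libraries, and between 838 and 1050 in LPS-MIC-1. The markers went against the labelled cell line in the control and LPS libraries, and the groups are therefore called by their labels. The difference between LPS-MIC-1 and the other 2 groups of C2C12 cannot be told apart from this difference in cell type markers, whereas the control and LPS libraries carried the same kind of markers. In muscle, 12 muscle fibre genes summed to between 275000 and 282000 FPKM in control, 259000 and 265000 in LPS, and 204000 and 218000 in LPS-MIC-1. The myoblast genes summed to between 4540 and 4600, 5770 and 5870, and 2910 and 3160 in the same groups. Both sums were lowest in LPS-MIC-1, but the myoblast genes did not all go this way. Actc1, the highest of them, had means of 2830, 4060 and 1140 FPKM in these groups. Des, the next, had 1610, 1590 and 1790 and was highest in LPS-MIC-1. The part of these markers in the muscle results was not tested.

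In the libraries labelled C2C12, Nfkbia was the most abundant of the 10 transcripts in every group and was higher in LPS than in control or LPS-MIC-1. It encodes IκBα. Its FPKM was 86.1, 85.5 and 90.6 in control, 391, 379 and 395 in the LPS group and 115, 121 and 117 with LPS-MIC-1. The 3 groups did not overlap, and LPS-MIC-1 lay between the others. LPS against control gave a log2 fold change of 2.15 (standard error 0.0409, limma adjusted p = 1.47e-08), LPS-MIC-1 against LPS one of -1.72 (adjusted p = 8.02e-09), and LPS-MIC-1 against control one of 0.43 (adjusted p = 1.88e-05), under the fold threshold. Quantile normalization lowered the last value to 0.08 (adjusted p = 0.204).

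The atypical IκB genes followed the same order of groups. Nfkbiz encodes IκBζ, a nuclear protein that binds NF-κB dimers at the promoters of secondary response genes such as Lcn2. It had 14.0, 13.5 and 13.4 FPKM in control, 122, 121 and 116 in the LPS group and 26.8, 27.8 and 24.9 with LPS-MIC-1. The change of 3.13 on the log2 scale with LPS against control (standard error 0.0509, limma adjusted p = 8.54e-09) was the largest of the 9 tested genes in that comparison, and the gene fell by 2.17 between LPS and LPS-MIC-1 (adjusted p = 7.56e-09). Bcl3 encodes a nuclear partner of the homodimers formed by the products of Nfkb1 and Nfkb2. It had 14.9, 13.7 and 13.7 FPKM in control, 64.9, 62.5 and 60.5 in the LPS group and 23.2, 20.5 and 23.8 with LPS-MIC-1. No library of LPS overlapped the other groups for either gene. Bcl3 rose by 2.14 in LPS against control (standard error 0.0685, limma adjusted p = 1.28e-07) and fell by 1.48 between LPS and LPS-MIC-1 (adjusted p = 1.96e-07).

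The other classical inhibitors were low. Nfkbie, which encodes IκBε, had 6.67, 7.67 and 6.39 FPKM in control, 8.45, 8.06 and 8.72 in the LPS group and 2.84, 3.61 and 4.05 with LPS-MIC-1. Control and LPS were close, 0.28 apart on the log2 scale (standard error 0.137, limma adjusted p = 0.107). Leaving out LPS-MIC-1 replicate 1, which enters the estimate of the spread, gave an adjusted p of 0.0304. LPS-MIC-1 lay below both groups, with a difference of -1.26 from LPS (adjusted p = 4.01e-05) and of -0.97 from control (adjusted p = 0.000227), the second value just under the fold threshold. Nfkbib, which encodes IκBβ, was between 0.342 and 1.6 FPKM in all 9 libraries and was not tested.

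The subunit genes did not share one pattern. Nfkb2 encodes the precursor that is processed into a DNA-binding subunit in the non-canonical branch of the pathway. It had 19.1, 19.2 and 19.1 FPKM in control, 74.4, 71.8 and 69.0 in the LPS group and 79.1, 82.1 and 83.4 with LPS-MIC-1. Relb, which encodes the usual dimer partner of the processed Nfkb2 product, had 8.99, 9.48 and 9.18, then 19.6, 17.8 and 20.3, then 24.6, 23.7 and 26.2 FPKM in the same order. For both genes the control libraries were the lowest and the LPS-MIC-1 libraries the highest.

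On the log2 scale, LPS libraries exceeded control by 1.90 for Nfkb2 (standard error 0.0415, limma adjusted p = 2.75e-08) and by 1.05 for Relb (standard error 0.067, adjusted p = 3.94e-06). In LPS-MIC-1 they were higher than in control by 2.08 (adjusted p = 3.66e-09) and 1.42 (adjusted p = 2.46e-07). Against LPS, Nfkb2 differed by 0.19 (adjusted p = 0.00309) and Relb by 0.37 (adjusted p = 0.000931), both far from the fold threshold. The first of these turned to -0.06 (adjusted p = 0.214) under quantile normalization.

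Rel encodes c-Rel, a subunit abundant in cells of the immune system. It had 6.72, 7.37 and 6.89 FPKM in control, 13.3, 13.7 and 13.2 in the LPS group and 2.31, 1.62 and 0.988 with LPS-MIC-1. Its difference of 0.93 in LPS against control (standard error 0.249, limma adjusted p = 0.0113) missed both thresholds. LPS-MIC-1 was lower, with a log2 difference of -3.03 from LPS (adjusted p = 6.53e-06) and of -2.10 from control (adjusted p = 7.57e-05). Against LPS, Rel had the largest absolute difference of the 5 subunit genes.

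Rela and Nfkb1 encode the subunits of the prototypical dimer and were among the most abundant subunit transcripts. Rela had 49.3, 49.5 and 49.9 FPKM in control, 67.6, 63.4 and 61.8 in the LPS group and 59.9, 78.5 and 78.1 with LPS-MIC-1. The LPS and LPS-MIC-1 ranges overlapped through LPS-MIC-1 replicate 1, and the log2 difference of 0.16 did not pass the test (limma adjusted p = 0.177). Without that library it was 0.29 (adjusted p = 0.00075). Nfkb1 had 46.0, 44.5 and 45.0 FPKM in control, 58.6, 59.2 and 57.5 in the LPS group and 35.9, 36.9 and 34.2 with LPS-MIC-1. Its groups did not overlap, but its log2 differences of 0.37, -0.71 and -0.34 (LPS against control, LPS-MIC-1 against LPS and LPS-MIC-1 against control) were all under the fold threshold.

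**Figure D1:**
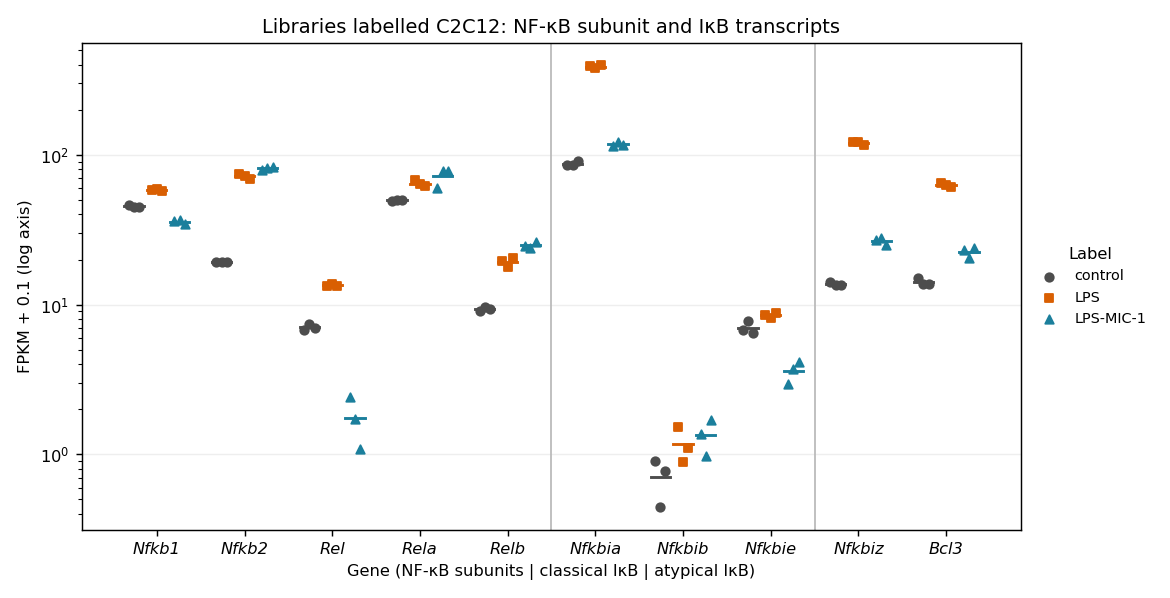
FPKM plus 0.1 (log axis) of the 10 genes in the 9 libraries labelled C2C12, with 1 point per library and a short line at the mean of the 3 libraries of a group. Nfkbia, Nfkbiz and Bcl3 are highest in LPS, Nfkb2 and Relb are lowest in control, and Rel is lowest in LPS-MIC-1, where it is at most 2.31 FPKM.

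Of the 9 genes tested in the libraries labelled C2C12, 5 were called higher in LPS than in control (Nfkbia, Nfkbiz, Bcl3, Nfkb2 and Relb) and none lower, while 10.9% of the 10877 tested genes were called higher and 10.0% lower. In LPS-MIC-1 against LPS, 5 were called lower (Rel, Nfkbiz, Nfkbia, Bcl3 and Nfkbie) and none higher, beside 25.6% and 24.3% of all tested genes. In LPS-MIC-1 against control, 2 were called higher (Nfkb2 and Relb) and 1 lower (Rel), beside 21.1% and 22.1%. The median log2 fold change of the 9 genes was 1.05, -1.26 and 0.53 in these comparisons, and that of all tested genes was 0.00, -0.05 and -0.06. Called genes in either direction made up 20.9% of all tested genes in LPS against control. They made up 49.9% of all tested genes in LPS-MIC-1 against LPS and 43.3% against control, so that a call there set a gene little apart from the others. At an adjusted p under 0.05 and any fold, 8, 8 and 9 of the 9 genes passed in LPS against control, LPS-MIC-1 against LPS and LPS-MIC-1 against control, beside 63.2%, 84.6% and 81.3% of all tested genes. Groups did not overlap for 9, 8 and 9 of them, beside 79.4%, 85.5% and 83.0%. Most tested genes passed these looser rules.

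In gastrocnemius muscle, Nfkbia was again the most abundant of the 10 transcripts in every group, but the group that stood apart was LPS-MIC-1. Its FPKM was 20.3, 23.1 and 19.5 in control, 23.4, 22.9 and 23.6 in the LPS group and 115, 114 and 107 with LPS-MIC-1. The control and LPS ranges overlapped, and every LPS-MIC-1 library was above them. LPS against control gave a log2 fold change of 0.16 (standard error 0.0631, limma adjusted p = 0.142), or 0.23 (adjusted p = 0.0246) without control replicate 2. LPS-MIC-1 exceeded LPS by 2.26 (adjusted p = 2.54e-08) and control by 2.41 (adjusted p = 1.58e-08). As the tissue was sequenced whole, more cells of a type and more RNA per cell cannot be told apart.

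The atypical IκB genes were highest in the same libraries. Nfkbiz had 0.875, 0.715 and 0.779 FPKM in control, 0.803, 1.11 and 0.962 in the LPS group and 4.65, 3.89 and 3.85 with LPS-MIC-1. Bcl3 had 1.7, 1.6 and 0.807 in control, 1.22, 1.45 and 0.894 in the LPS group and 5.14, 5.21 and 4.05 with LPS-MIC-1. In both genes control and LPS overlapped and LPS-MIC-1 lay above all 6 other libraries.

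On the log2 scale, Bcl3 in LPS-MIC-1 rose over LPS by 1.94 (standard error 0.284, limma adjusted p = 0.000494) and over control by 1.79 (adjusted p = 0.000761). Nfkbiz was 2.00 above LPS and 2.25 above control. It passed the FPKM filter only through the LPS-MIC-1 libraries, so that these 2 differences were favoured by the filter and are given as values alone. For LPS against control the log2 difference was 0.24 for Nfkbiz (adjusted p = 0.368) and -0.15 for Bcl3 (adjusted p = 0.771).

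The subunit genes differed less in muscle. Rela had 10.2, 7.44 and 8.84 FPKM in control, 8.86, 10.9 and 9.96 in the LPS group and 15.8, 18.1 and 15.2 with LPS-MIC-1. All LPS-MIC-1 libraries were above the others, with a log2 difference of 0.72 from LPS (standard error 0.127, limma adjusted p = 0.00141) and 0.89 from control (adjusted p = 0.000402). Both passed the adjusted p but not the fold threshold.

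Relb was the one member past an adjusted p of 0.05 in LPS against control. It had 7.6, 8.82 and 7.64 FPKM in control, 11.4, 10.8 and 13.6 in the LPS group and 10.9, 8.96 and 8.07 with LPS-MIC-1. The LPS libraries were all above control, by a log2 difference of 0.56 (standard error 0.128, limma adjusted p = 0.0212), whereas LPS-MIC-1 overlapped both groups and differed from LPS by -0.36 (adjusted p = 0.0425). Neither value was robust to leaving out 1 library. The adjusted p of the first was between 0.0509 and 0.0676 without control replicate 1 or 3 or LPS replicate 1 or 3. That of the second was between 0.0557 and 0.137 without any 1 of these libraries or without LPS-MIC-1 replicate 2 or 3.

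Nfkb1 and Nfkb2 were nearly level in muscle. Nfkb1 was between 4.85 and 6.46 FPKM in all 9 libraries, and its difference of 0.23 between LPS-MIC-1 and LPS (limma adjusted p = 0.0429) was 0.07 (adjusted p = 0.531) under quantile normalization. Leaving out control replicate 2, LPS replicate 1 or 3 or any LPS-MIC-1 library gave an adjusted p between 0.0545 and 0.136. Nfkb2 was between 4.54 and 6.88 FPKM, with log2 differences of 0.15, 0.10 and 0.24 and adjusted p of 0.49, 0.543 and 0.131 in LPS against control, LPS-MIC-1 against LPS and LPS-MIC-1 against control.

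The 3 genes that were not tested in muscle were low in FPKM. Rel had 0.554, 0.612 and 0.538 FPKM in control, 0.691, 0.458 and 0.726 in the LPS group and 1.42, 1.3 and 1.56 with LPS-MIC-1. Nfkbib was listed at 0 in 1 control and 1 LPS library, was at most 0.157 in the other libraries of these groups, and had 1.5, 0.668 and 0.704 in LPS-MIC-1. Nfkbie was listed at 0 in 1 control and 2 LPS libraries, was at most 0.263 in the others, and had 0.674, 0.496 and 0.911 in LPS-MIC-1. For all 3 genes the LPS-MIC-1 libraries lay above the other 6. The authors' base mean, a count divided by size factors and averaged over libraries, was between 11.75 and 13.62 for Nfkbib and Nfkbie in muscle, so that these rest on few reads, against 101.7 to 104.4 for Rel and 1304 to 1322 for Nfkbia.

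**Figure D2:**
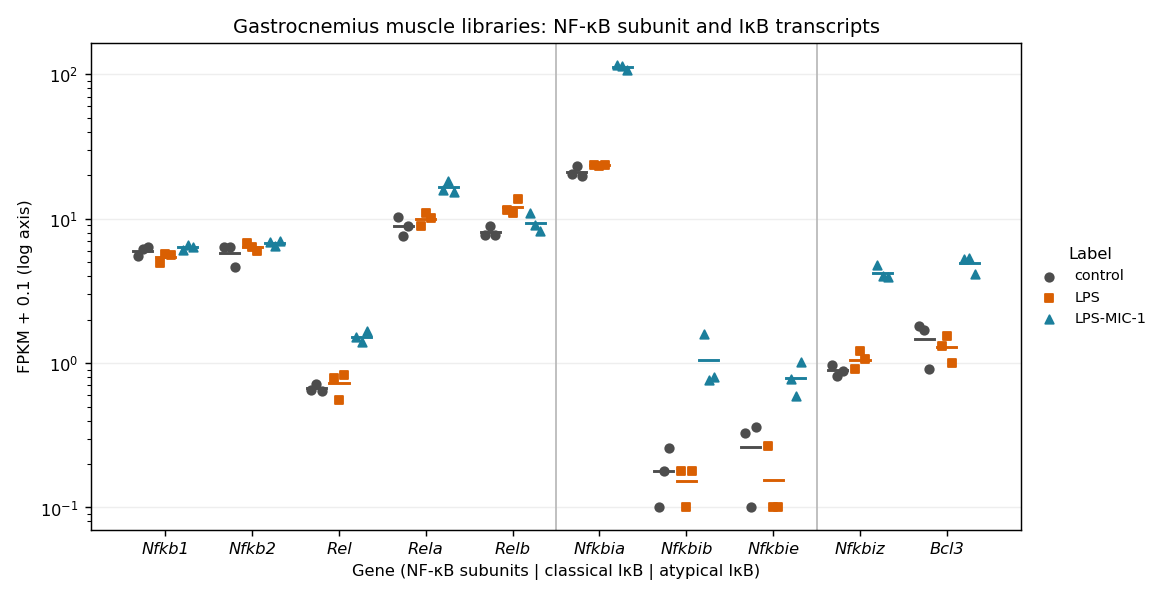
FPKM plus 0.1 (log axis) of the 10 genes in the 9 gastrocnemius libraries, with 1 point per library and a short line at the mean of the 3 libraries of a group; points at the lowest level are listed at 0 FPKM. The LPS-MIC-1 libraries lie above the other 6 for Rel, Rela, the 3 classical IκB genes, Nfkbiz and Bcl3, and Nfkbia is at least 107 FPKM there.

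Of the 7 genes tested in muscle, 0 were called in LPS against control, where 1.25% of the 9475 tested genes were called by limma (0.654% higher and 0.591% lower). At an unadjusted p under 0.05 there were 2, Relb and Nfkbia, beside 29.6% of all tested genes, a share close to that of the 7. In LPS-MIC-1 against LPS, 3 were called higher (Nfkbia, Bcl3 and Nfkbiz, the last of which passed the filter only through the LPS-MIC-1 libraries), beside 9.67% of all tested genes called higher and 5.44% lower (15.1% in all). The same 3 were called higher against control, beside 9.33% and 6.12% (15.5% in all). The median log2 fold change of the 7 genes was 0.16, 0.72 and 0.89 in the 3 comparisons, and that of all tested genes was 0.01, -0.01 and 0.01. At an adjusted p under 0.05 and any fold, 1, 6 and 4 of the 7 genes passed, beside 15.7%, 56.5% and 58.5% of all tested genes. Groups did not overlap for 1, 5 and 5 of them, beside 36.5%, 64.2% and 64.6%.

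**Figure D3:**
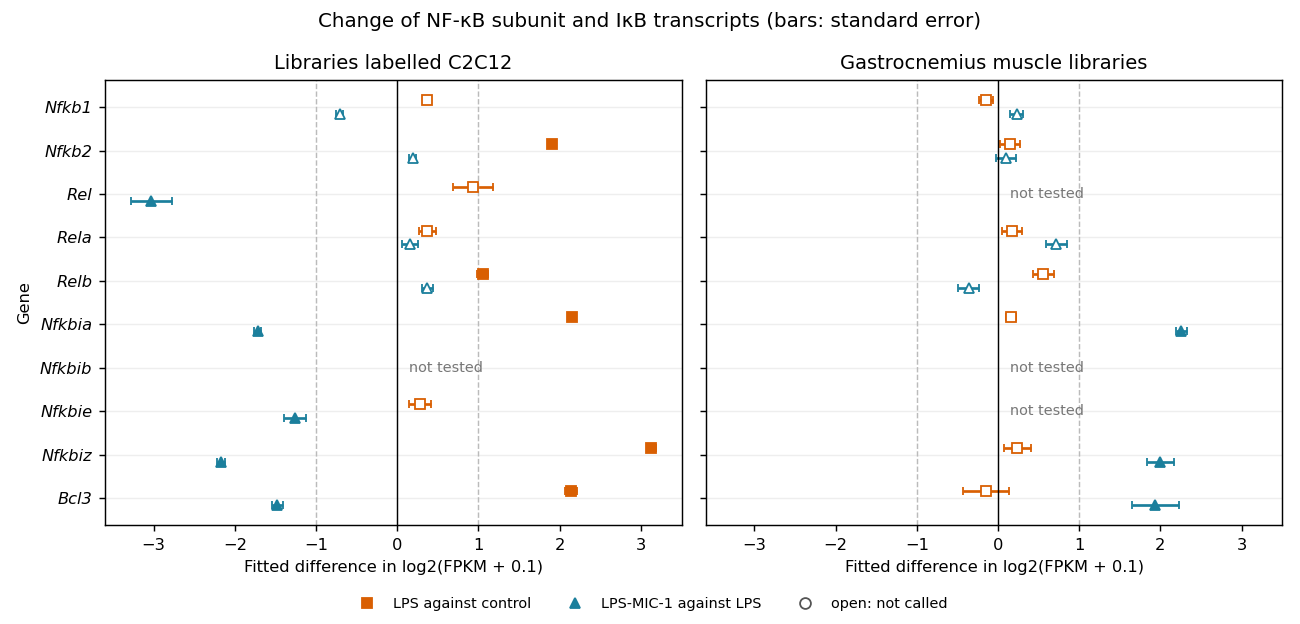
Fitted log2 differences of the tested genes (x axis) for LPS against control (squares) and LPS-MIC-1 against LPS (triangles), with standard errors as bars, filled where the gene was called and dashed lines at a difference of 1. Nfkbia, Nfkbiz and Bcl3 are called in both panels for LPS-MIC-1 against LPS, to the left of 0 in C2C12 and to the right of 0 in muscle. In muscle, Nfkbiz passed the FPKM filter only through the LPS-MIC-1 libraries.

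Nfkbia, Nfkbiz and Bcl3 differed between LPS-MIC-1 and LPS in opposite directions in the 2 experiments. The change in muscle minus the change in the C2C12 libraries was 3.98 for Nfkbia (limma adjusted p = 6.35e-15) and 3.42 for Bcl3 (adjusted p = 7e-08) on the log2 scale. For Nfkbiz it was 4.18, given as a value alone, as this gene passed the muscle filter only through the LPS-MIC-1 libraries. For Nfkb2 the difference between the changes was -0.09 (adjusted p = 0.56). In LPS against control the same subtraction gave -2.00 for Nfkbia (adjusted p = 4.73e-11), -2.89 for Nfkbiz (adjusted p = 7.66e-10), -2.29 for Bcl3 (adjusted p = 1.46e-05) and -1.75 for Nfkb2 (adjusted p = 6.77e-08), and for Rela -0.20 (adjusted p = 0.337). Of the 8422 genes tested for these differences, 79.0% passed an adjusted p of 0.05 for LPS-MIC-1 against LPS and 57.2% for LPS against control. The experiments differ in tissue, in the dose and route of LPS, in the timing of MIC-1 and in the cell type markers of the libraries labelled C2C12, which cannot be told apart.

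The balance of inhibitor and subunit transcripts was taken within each library, as the summed FPKM of the 3 classical IκB genes over that of the 5 subunit genes. This ratio does not depend on how libraries were scaled. In C2C12 it was 0.719, 0.719 and 0.751 in control, 1.72, 1.72 and 1.83 in the LPS group and 0.589, 0.565 and 0.551 with LPS-MIC-1. In muscle it was 0.684, 0.791 and 0.717 in control, 0.728, 0.672 and 0.666 in the LPS group and 2.87, 2.78 and 2.85 with LPS-MIC-1. The control ratios of the 2 experiments were close (means 0.73 and 0.731), although the summed subunit FPKM was 130 in C2C12 and 29.0 in muscle.

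The ratio was 2.4 times as high in LPS as in control in C2C12 and 0.942 times as high in muscle. In LPS-MIC-1 it was 0.324 times that of LPS in C2C12 and 4.11 times that of LPS in muscle. The groups overlapped only for LPS against control in muscle (exact permutation p = 0.3, 2-sided, n = 3 and 3). All other comparisons gave an exact permutation p of 0.1, the smallest that 3 against 3 libraries allow. Nfkbia contributed between 91.4 and 100% of the classical IκB FPKM in every library, so that the ratio follows this gene. With Nfkbia over Rela alone, LPS-MIC-1 and control overlapped in C2C12 (means 1.65 and 1.76, exact permutation p = 0.4).

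The make-up of the subunit transcripts also differed between groups. In C2C12 control, Rela held 38.1% ± 0.217 (SD, n = 3) and Nfkb1 34.7% ± 0.553 of the summed subunit FPKM, followed by Nfkb2 with 14.7% ± 0.0224. In LPS, Nfkb2 was first with 31.6% ± 0.412, ahead of Rela (28.3% ± 0.577) and Nfkb1 (25.7% ± 0.566). In LPS-MIC-1 the share of Nfkb2 was 37.8% ± 1.22, that of Nfkb1 16.6% ± 1.21, and that of Rel 0.771% ± 0.353 against 5.91% ± 0.199 in LPS. The shares of Nfkb2 and Nfkb1 did not overlap between any 2 groups.

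In muscle, Relb took a larger part than in C2C12. It held 27.7% ± 2.4 (SD, n = 3) in control, 35.0% ± 3.18 with LPS and 23.2% ± 2.98 with LPS-MIC-1, against at most 12.2% in any C2C12 library. Rela held 30.4% ± 4.43 in control, 29.1% ± 2.55 with LPS and 40.9% ± 2.77 with LPS-MIC-1, where it was above every other muscle library. Rel was at most 4.1% in muscle.

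**Figure D4:**
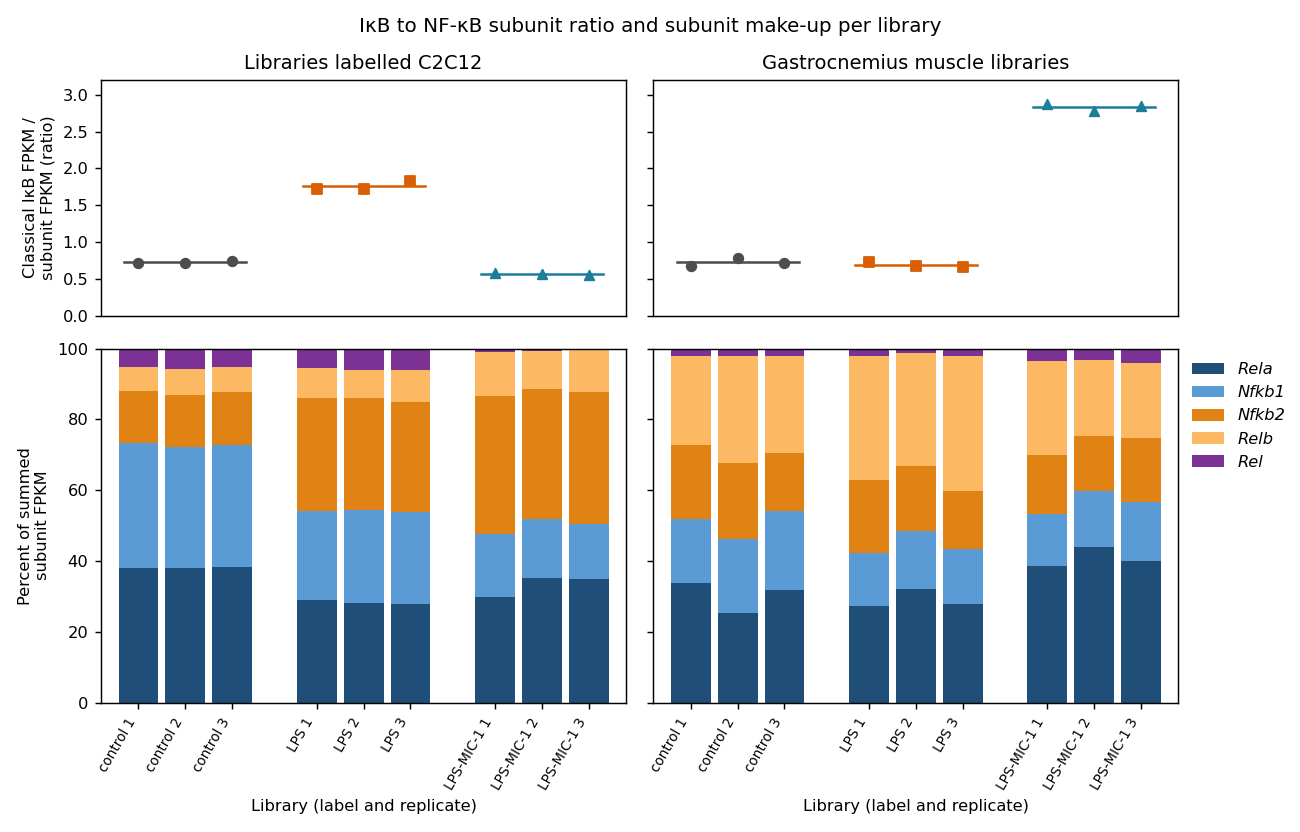
Upper panels: ratio of the summed FPKM of Nfkbia, Nfkbib and Nfkbie to that of the 5 subunit genes in each library, with a line at the group mean. Lower panels: percent of the summed subunit FPKM held by each subunit gene; the ratio is highest in LPS in C2C12 (1.72 to 1.83) and in LPS-MIC-1 in muscle (2.78 to 2.87).

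Within each group the order of the levels was similar at its ends. Nfkbia was first in all 6 groups and did not overlap the second gene. In C2C12 control it was followed by Rela, Nfkb1 and Nfkb2, in C2C12 LPS by Nfkbiz, Nfkb2 and Rela, and in C2C12 LPS-MIC-1 by Nfkb2, Rela and Nfkb1. In muscle Nfkbia was followed by Rela and Relb, whose ranges overlapped each other in control and in LPS. Nfkbib and Nfkbie, or Nfkbib and Rel in C2C12 LPS-MIC-1, were the lowest, and the ranges of Rel and Nfkbie overlapped in C2C12 control.

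The kinases and adaptors that lead to IκB degradation were examined as a list of 18 genes. In C2C12, all 18 were tested. Only 1 was called higher in LPS against control, beside 10.9% of all tested genes. It was Irak2, an adaptor kinase below the Toll-like and interleukin-1 receptors, which rose from 16.8 ± 0.899 to 121 ± 0.602 FPKM (log2 fold change 2.84, limma adjusted p = 1.05e-05). When LPS-MIC-1 was compared with LPS, 8 were called lower and 1 higher, beside 25.6% and 24.3% of all tested genes. Map3k8 went from 7.85 to 0.0899 FPKM. Ripk1 was the one called higher, but it was listed at 0 in all LPS libraries and passed the filter only through LPS-MIC-1. The 3 genes of the IκB kinase complex, chosen after their values were seen, differed among themselves. Chuk, which encodes a catalytic subunit, fell (18.2 to 6.18 FPKM, log2 fold change -1.55, adjusted p = 1.51e-06). Ikbkb, which encodes the other catalytic subunit, had a log2 difference of -0.23 (adjusted p = 0.0177), and Ikbkg, which encodes the regulatory subunit, one of 0.54 (adjusted p = 0.00012), both under the fold threshold. The median of the list was 0.40 in LPS against control and -0.88 in LPS-MIC-1 against LPS, beside 0.00 and -0.05 for all tested genes.

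In muscle, 13 of the 18 were tested and 0 were called by limma in LPS against control, beside 1.25% of all tested genes. At an unadjusted p under 0.05, 3 were higher and 2 lower there, beside 29.6% of all tested genes in either direction. With LPS-MIC-1 against LPS, 2 were called higher, beside 9.67% of all tested genes (6 were higher and 2 lower at an unadjusted p under 0.05, beside 61.0%). They were Irak2 (2.33 ± 0.0427 to 7.44 ± 0.337 FPKM, log2 fold change 1.63, adjusted p = 3.5e-05) and Tbk1, which encodes an IκB kinase related enzyme (3.37 ± 0.125 to 7.86 ± 0.43 FPKM, log2 fold change 1.20, adjusted p = 3.6e-06). The median of the list was 0.33, beside -0.01 for all tested genes. Between LPS and LPS-MIC-1, Chuk went from 4.07 to 6.77 FPKM (log2 difference 0.72, adjusted p = 3.38e-05), Ikbkg from 2.36 to 3.34 (0.48, adjusted p = 0.002) and Ikbkb from 4.35 to 4.99 (0.20, adjusted p = 0.203), none past the fold threshold.

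Further feedback inhibitors of the pathway were taken as a list of 12 genes. In C2C12, 4 were called higher and 1 lower in LPS against control, where 20.9% of all tested genes were called. Tnfaip3, which encodes the ubiquitin-editing enzyme A20, rose from 3.2 ± 0.307 to 32.1 ± 0.657 FPKM (log2 fold change 3.29, limma adjusted p = 4.59e-07), and Zc3h12a, which encodes an RNase that degrades cytokine mRNA, rose from 17.7 ± 0.647 to 96.1 ± 2.52 FPKM. Nfkbid, a further atypical IκB gene, fell from 17.6 ± 0.696 to 6.41 ± 0.342 FPKM (log2 fold change -1.44, adjusted p = 5.5e-06), opposite to Nfkbiz and Bcl3. Relative to LPS, 6 were called lower and 0 higher (9 and 1 before adjustment at a p under 0.05). Of all tested genes, 25.6% were called lower and 24.3% higher, and 85.2% were under that p in either direction. The median of the list was -1.59, beside -0.05 for all tested genes. Nfkbid and Irak3 were listed at 0 in LPS-MIC-1. Irak3 is mainly expressed in monocytes and macrophages, and the part of cell type in its values was not tested.

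In muscle, 7 of the 12 were tested, with 0 called in LPS against control, beside 1.25% of all tested genes. At an unadjusted p under 0.05, 2 were higher and 0 lower there, close to the 29.6% of all tested genes. In LPS-MIC-1 against LPS, 3 were called higher, beside 9.67% of all tested genes. Tnip2, which encodes a partner of A20, rose from 2.03 ± 0.287 to 9.74 ± 0.693 FPKM (log2 fold change 2.22, limma adjusted p = 8.33e-06), Fam105b, the older symbol of the deubiquitinase gene Otulin, from 8.37 ± 0.334 to 24.6 ± 1.36 FPKM (log2 fold change 1.54, adjusted p = 4.15e-06), and Zc3h12a from 1.88 ± 0.143 to 4.93 ± 0.423 FPKM (log2 fold change 1.35, adjusted p = 3.66e-05). Nfkbid was listed at 0 in all 9 muscle libraries.

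Of 22 well known NF-κB target genes, 21 were tested in C2C12, and 13 were called higher and 0 lower in LPS against control (17 and 0 at an unadjusted p under 0.05), beside 10.9% and 10.0% of all tested genes called and 66.2% under that p in either direction. Most changed were Csf3, a granulocyte growth factor (0.501 to 2580 FPKM), and Lcn2, an iron-sequestering protein of innate immunity (1.16 to 2670 FPKM). Tnf (57.6 to 397 FPKM), Il1b (2.19 to 167) and Cxcl2 (174 to 8370) were not called, at limma adjusted p of 0.0154, 0.00117 and 0.00788. Their control and LPS libraries did not overlap, but the spread was estimated over all 9 libraries. In LPS-MIC-1 they had 5.22 ± 6.94, 1.79 ± 2.86 and 80.3 ± 131 FPKM. Relative to LPS, 17 were called lower and 2 higher, beside 25.6% and 24.3% of all tested genes. The 2 exceptions were Cxcl1, a neutrophil chemokine (0.436 to 491 FPKM), and Vcam1, an adhesion molecule (0.0122 to 41.1 FPKM), while the related chemokine Cxcl2 went from 8370 to 80.3 FPKM. Both Cxcl1 and Vcam1 were near 0 in the libraries with macrophage markers, also in LPS, and passed the FPKM filter only through the LPS-MIC-1 libraries, which set their direction. Bcl2a1a, among the 13 called higher in LPS and the 17 called lower in LPS-MIC-1, passed only through the LPS libraries. In LPS-MIC-1 against control, 6 were called higher (Cxcl1 and Vcam1 among them) and 3 lower, beside 21.1% and 22.1% of all tested genes.

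In muscle, 12 of the 22 targets were tested. In LPS against control, 2 were called higher, beside 0.654% of all tested genes, and both were low. Ccl2, a monocyte chemokine, had 0.159 ± 0.0696 FPKM in control and 0.564 ± 0.186 in LPS (log2 fold change 1.35, limma adjusted p = 0.0151), and Saa3, an acute phase gene, was listed at 0 in control and had 1.03 ± 0.265 in LPS. Of the 12 genes, 9 (both of these, Cxcl1, Cxcl2, Cxcl10, Ccl5, Icam1, Lcn2 and Csf3) passed the FPKM filter only through the LPS-MIC-1 libraries, so that a difference there was set by the filter and is given as values alone. The mean of Lcn2 was 0.972 FPKM with LPS alone and 1250 with LPS-MIC-1, and that of Saa3 was 1.03 and 511. The other 3 targets (Sod2, Birc3 and Tnfaip2) were not called in LPS-MIC-1 against LPS, with log2 differences of -0.26, 0.80 and -0.98. In the muscle LPS-MIC-1 libraries, the 13 macrophage genes summed to 41.2, 38.1 and 204 FPKM and the 10 neutrophil genes to between 14.4 and 20.0, against 24.4 to 28.1 and 1.76 to 2.02 in LPS. Single genes of these lists differed. Lyz2, the highest macrophage gene, had 5.27, 3.93 and 78.3 FPKM in LPS-MIC-1, and 8.31, 9.65 and 8.93 in LPS. Fcer1g, the next, had means of 19.3 and 7.36. Of the 2 highest neutrophil genes, S100a8 had means of 7.38 in LPS-MIC-1 and 0.491 in LPS, and Cxcr2 of 1.44 and 1.17. The part of these markers in the rise of Nfkbia, Nfkbiz and Bcl3 was not tested.

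The genes most like Nfkbia and Rela over the 9 libraries were found by Pearson's r of log2(FPKM + 0.1), as a description. In C2C12 they were Hspa5 (r = 0.9982), Rab22a (0.9982) and Blcap (0.9980) for Nfkbia, and 50 genes had an r over 0.99. For Rela they were Lins2 (0.9692), Ssbp3 (0.9611) and Iqcb1 (0.9571). In muscle they were Hspb1 (0.9993), Sgk1 (0.9989) and Ankrd1 (0.9988) for Nfkbia, with 189 genes over 0.99, and Zc3h3 (0.9873), Armc5 (0.9818) and Tm9sf3 (0.9803) for Rela. The libraries form 3 groups, so that any gene high in the same group has a high r.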

How the data were processed

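Reads were pseudoaligned by the authors with kallisto and summarised per gene with tximport in R, and the deposited values are FPKM, 1 per gene and library (mm9 in the submitters' processing notes). The authors' deposited DESeq2 tables also hold base means, a signal in counts divided by size factors, used here only to judge depth. Their fold changes and p-values were not used. One of the tables, for muscle control and LPS, had other symbols and another scale and was not used. The muscle file has 11 columns without a name, 9 of them numeric, which were not used. Depth per library is unknown, so no counting interval was given, and an exact 0 may be a failed estimate. Pseudoalignment may split reads between similar transcripts.

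Members, gene lists, tests and the alternatives were chosen with earlier results of these data known. All 10 members are named. Of each pathway list, the named genes were the 2 called genes with the largest fold change and no overlap between groups. Marker lists are given as sums, with the 2 highest myoblast, macrophage and neutrophil genes in muscle named as well. Chuk, Ikbkb, Ikbkg, Vcam1, Zc3h12a in muscle and Nfkbid in C2C12 LPS against control and in muscle were added after their values were seen. So were Tnf, Il1b and Cxcl2 in C2C12 LPS against control. Targets named for how they passed the FPKM filter (Bcl2a1a among them), and Sod2, Birc3 and Tnfaip2 in muscle, were also named outside the rule of largest fold change. Each experiment was fitted in R 4.3.3 with limma 3.58.1 (group means, eBayes with trend) on log2(FPKM + 0.1), which understates changes of low genes, over genes with a mean FPKM over 1 (10877 in C2C12, 9475 in muscle). Adjustment (Benjamini-Hochberg) ran over every gene tested in a comparison. The difference between experiments was a contrast over 18 libraries and 8422 genes. Exact permutation tests used scipy 1.17.1 and figures matplotlib 3.10.9. The fit was tested on simulated data. The alternatives tried were quantile normalization, median-ratio scaling, a pseudocount of 1 or 0.01, a filter at a mean FPKM of 5 or none (above 0 in at least 3 libraries), a replicate block, eBayes without trend, the 6 libraries compared alone, an adjusted p under 0.05 at any fold, and leaving out each library. The correlation of same-numbered replicates' deviations was between -0.076 and 0.057 in C2C12 and between -0.054 and 0.082 in muscle, so that the numbers do not pair libraries.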

Additional observations from a re-analysis of the deposited data

Results flagged for a closer look

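The change of 12 gene and comparison pairs differed between the 2 experiments by the limma contrast of the changes themselves (adjusted p under 0.05). They were 6 of the 7 genes tested in both in each comparison, beside 57.2% of all genes tested in LPS against control and 79.0% in LPS-MIC-1 against LPS. In LPS against control, the change in muscle minus that in the C2C12 libraries was -0.52 for Nfkb1, -1.75 for Nfkb2, -0.49 for Relb, -2.00 for Nfkbia, -2.89 for Nfkbiz and -2.29 for Bcl3 on the log2 scale. Of these, Nfkb1 (0.37 and -0.15) and Bcl3 (2.14 and -0.15) had fitted changes of opposite sign in C2C12 and muscle, although neither value in muscle passed the test.

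In LPS-MIC-1 against LPS, the difference was 0.94 for Nfkb1, 0.57 for Rela, -0.72 for Relb, 3.98 for Nfkbia, 4.18 for Nfkbiz and 3.42 for Bcl3. Nfkbia, Nfkbiz and Bcl3 were called in both experiments, lower in the C2C12 libraries and higher in muscle. In muscle, Nfkbiz passed the FPKM filter only through the LPS-MIC-1 libraries, so that its 4.18 was favoured by the filter. The C2C12 libraries labelled LPS and LPS-MIC-1 differed in cell type markers, and this cannot be told apart from the treatment.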

How the results depend on the processing

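Over the alternatives, 62 pairs of a gene and a comparison were refitted 1166 times, of which 1152 kept their direction and their side of the threshold, 1 lost the call, 6 gained it and 7 turned. Relb in C2C12 LPS against control was 0.98 at a pseudocount of 1 and lost the call. Calls were gained in LPS-MIC-1 against control by Nfkbiz in C2C12 (1.04 with median-ratio scaling and 1.01 with quantile normalization), by Nfkbie in C2C12 (-1.02 without control replicate 3, -1.00 and -1.08 without LPS-MIC-1 replicates 2 and 3) and by Rela in muscle (1.00 without control replicate 1). Values turned in 7 cases, all under the fold threshold. Quantile normalization, which moved the median of all muscle genes to -0.116 (LPS-MIC-1 against LPS) and -0.101 (against control), gave -0.06 for Nfkb2 and -0.05 for Rela in C2C12 LPS-MIC-1 against LPS, -0.07 for Nfkb2 in muscle LPS-MIC-1 against LPS and -0.07 for Nfkb1 in muscle LPS-MIC-1 against control. In muscle LPS against control, Bcl3 was 0.03 without control replicate 1 and 0.02 without LPS replicate 3, and Nfkb2 was -0.01 without control replicate 3, over ranges of -0.47 to 0.03 and -0.01 to 0.22 when 1 library was left out.

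At an adjusted p under 0.05 at any fold, the called members were 8, 8 and 9 in C2C12 (LPS against control, LPS-MIC-1 against LPS and LPS-MIC-1 against control) and 1, 6 and 4 in muscle, beside 63.2%, 84.6%, 81.3%, 15.7%, 56.5% and 58.5% of all tested genes. Without the FPKM filter, 6 of the 10 members were called in each muscle comparison of LPS-MIC-1, beside 14% (against LPS) and 14.5% (against control) of all tested genes. Rel, Nfkbib and Nfkbie were then tested, and the last 2 were listed at 0 in some control and LPS libraries. With a mean FPKM over 5, Nfkbiz and Bcl3 were not tested. Then 1 of 5 members was called in each, beside 12% and 12.4%. Leaving out 1 library gave 5 to 5, 5 to 5 and 3 to 4 called members in C2C12 and 0 to 0, 3 to 3 and 3 to 4 in muscle, and fold differences of the IκB to subunit ratio of 2.35 to 2.44, 0.318 to 0.331 and 0.765 to 0.791 in C2C12 and 0.913 to 0.983, 4.05 to 4.23 and 3.76 to 4.04 in muscle.

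The replicate block changed no count of called members (5, 5, 3, 0, 3 and 3). With the block, the adjusted p of Relb in muscle was 0.0558 in LPS against control and 0.0808 in LPS-MIC-1 against LPS. Low transcripts limit what could be seen. Nfkbib and Nfkbie in muscle rest on base means of 11.75 to 13.62.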
